A study of Mus musculus with 9 samples.

Results

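The genes described here are 10 components and targets of the pathway from leukaemia inhibitory factor (LIF) to STAT3: the receptor genes Lifr and Il6st, the kinase Jak1, the transcription factor Stat3, the feedback inhibitor Socs3, and the targets Pim1, Pim3, Sgk1, Bcl3 and Gbx1. They were picked by name as parts of this pathway, with earlier results of these data known, and are 10 of the 52636 gene IDs in the count table. All 10 passed the low-count filter that left 16198 genes for testing. RNA of mouse embryonic stem cells was sequenced in 9 libraries from 3 lines, each with 3 replicates. The reference line, titled NanogKO (44C6; genotype label N{delta}), is called Nanog-null here. A line titled NanogKO:Esrrb (44J) is called the Esrrb line, and another titled NanogKO:Esrrb:Nanog (44JN) is called Esrrb+Nanog. By their titles both also carry the Nanog knockout and are named for genes added to it, and their genotype labels are identical (N{delta}:cE:iN). All cells grew in serum with LIF, received no further agent, and were sorted as PECAM-positive and PDGFRA-negative. Each group is 1 line, so an added gene and the line that carries it cannot be told apart. No label states that replicates came from separate cultures, so p-values reflect only the spread between these libraries, which may be technical.

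LIF binds LIFR, which pairs with gp130, the product of Il6st. JAK kinases held by the receptors then phosphorylate STAT3, which enters the nucleus and binds DNA. In mouse embryonic stem cells STAT3 sustains self-renewal, and ESRRB and NANOG are transcription factors of the same self-renewing state. SOCS3 is made in response to STAT3 and shuts the receptor complex down. Since all 3 lines were grown with LIF, the comparisons are between lines and not between cells with and without the cytokine, and RNA levels do not measure phosphorylated STAT3.

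Library totals ran from 21808120 to 32496267 counts. Nanog was at 14.3 to 16.0 CPM (counts scaled to library size) across Nanog-null libraries, 29.7 to 35.1 in the Esrrb libraries and 221 to 333 in the Esrrb+Nanog libraries. Esrrb was at 253 to 303, 692 to 949 and 1056 to 1151 CPM in the same order. The 8 embryonic stem cell markers listed, Pou5f1 and Sox2 among them, were detected in every library. They had sums of 2965 to 3195 CPM (Nanog-null), 3935 to 3981 (Esrrb) and 3568 to 3812 (Esrrb+Nanog). The single markers did not share 1 direction. By the tests used below, 4 were higher and 1 lower in the Esrrb line than in the Nanog-null line. In the Esrrb+Nanog line 3 were higher and 3 lower, Sox2 among the latter. From the Esrrb to the Esrrb+Nanog line 0 were higher and 2 lower. Over all tested genes 48.5%, 54.4% and 13.2% passed in these comparisons, in the same order. In bulk RNA, fewer cells of a type and less RNA per cell cannot be told apart. Esrrb replicate 2 stood apart from the other Esrrb libraries for several of the genes below. Nanog-null replicate 2 held the highest sums of trophoblast and fibroblast markers, and results that change without either library are given both ways.

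The promoter stretches that hold a motif of STAT3 or ESRRB are printed first, to show which of the 10 genes carry these letters near a start, whether or not the gene changed. RefSeq promoters (build GRCm38.p6, from 250 bases before to 50 bases after each start) were matched for 9 of the 10 genes, 16 promoters in all. No promoter was matched for Gbx1. The STAT3 motif TTCNNNGAA was found in 2 of the 16 promoters, 1 of Socs3 and 1 of Sgk1, and in 8.3% of all 32851 promoters searched. The ESRRB motif AAGGTCA, searched on both strands and so also as TGACCTT, was found in 4 of the 16, 1 of Lifr, 1 of Pim3 and 2 of Sgk1, and in 4.72% of all promoters. Capitals mark the motif, each stretch is written 5′ to 3′ along the gene, and none overlaps an annotated exon of that gene.
Socs3, STAT3 motif, chr11:117969487-117969545, minus strand: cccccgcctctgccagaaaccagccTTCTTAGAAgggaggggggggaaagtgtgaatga
Sgk1, STAT3 motif, chr10:21881936-21881994, plus strand: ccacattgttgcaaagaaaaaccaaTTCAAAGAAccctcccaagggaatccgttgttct
Lifr, ESRRB motif, chr15:7129322-7129356, plus strand: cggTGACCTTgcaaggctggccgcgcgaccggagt
Pim3, ESRRB motif, chr15:88861998-88862054, plus strand: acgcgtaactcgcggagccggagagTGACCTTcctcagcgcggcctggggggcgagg
Sgk1, ESRRB motif, chr10:21978584-21978640, plus strand: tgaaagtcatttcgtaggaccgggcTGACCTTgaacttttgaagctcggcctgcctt
Sgk1, ESRRB motif, chr10:21985977-21986033, plus strand: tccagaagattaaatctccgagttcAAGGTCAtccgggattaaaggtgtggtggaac

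The Socs3 motif starts 154 bases upstream of the RefSeq start and 334 bases upstream of the start of the coding transcript in the GENCODE M21 annotation. The Sgk1 motif for STAT3 starts 223 bases upstream of 1 of the 6 Sgk1 promoters, and its ESRRB motifs lie 63 and 102 bases upstream of 2 others. The ESRRB motif of Lifr lies 247 bases upstream of 1 of its 2 RefSeq promoter starts, and that of Pim3 171 bases upstream. By the GENCODE M21 gene spans, the stretches of Lifr and Socs3 and those with the Sgk1 ESRRB motifs lie inside their genes. The promoter windows of Il6st, Jak1, Stat3, Pim1 and Bcl3 held neither run of letters, which says only that these letters are not in these windows. Promoter stretches without exons of the gene itself are printed for 2 genes with large changes in opposite directions. They are Bcl3, which rose in both lines with added genes, and Pim1, the only one of the 10 that fell. Neither holds either motif, and 67.7% and 83% of their bases are G or C.
Bcl3, chr7:19822771-19823005, minus strand: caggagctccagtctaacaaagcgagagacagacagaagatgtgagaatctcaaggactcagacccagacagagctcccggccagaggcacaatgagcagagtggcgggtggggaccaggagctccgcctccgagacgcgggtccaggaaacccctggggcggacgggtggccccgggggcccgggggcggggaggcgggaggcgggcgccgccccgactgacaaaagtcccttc
Pim1, chr17:29490535-29490752, plus strand: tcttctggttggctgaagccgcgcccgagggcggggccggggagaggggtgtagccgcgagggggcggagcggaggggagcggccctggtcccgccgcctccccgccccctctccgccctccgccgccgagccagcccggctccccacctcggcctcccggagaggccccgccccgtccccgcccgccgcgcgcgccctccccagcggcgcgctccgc

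Against the Nanog-null libraries, 6 of the 10 genes rose in the Esrrb line (Lifr, Il6st, Jak1, Stat3, Socs3 and Bcl3), Pim1 fell, and Pim3, Sgk1 and Gbx1 did not pass the threshold. Across all tested genes 48.5% passed in this comparison, 24.2% higher and 24.2% lower. The median log2 fold change of the 10 genes was 0.57, beside 0.006 over all tested genes, and the median size of change was 0.79 beside 0.322. In 8 of the 10 the libraries of these lines did not overlap, which held for 58.4% of all tested genes. Against the Nanog-null libraries, 7 of the 10 rose in the Esrrb+Nanog line, Pim1 fell, and Il6st and Pim3 did not pass, where 54.4% of all genes passed (27.2% higher and 27.2% lower). Here too 8 of the 10 did not overlap, beside 61.9% of all genes. The median log2 fold change there was 0.65 beside 0.002. These comparisons share the Nanog-null libraries. The 10 genes were chosen with earlier results known, so their counts and medians only describe them. Between the Esrrb+Nanog and Esrrb lines, Stat3 alone passed, 1 of 10 and higher, beside 13.2% of all genes (5.43% higher and 7.75% lower), and 4 of the 10 did not overlap beside 31.6%. The median log2 fold change was 0.2 beside -0.005. Length here is that of all annotated exons of a gene merged, not of 1 transcript. Levels and ratios per length between genes thus depend on the annotation. Per kilobase of this length, mean levels of the 10 genes in the Nanog-null line ran from 0.343 CPM (Gbx1) to 119.5 (Pim3). Stat3 was at 6.26, Bcl3 at 6.82 and Pim1 at 76.6. On this scale Socs3 went from 11.1 there to 79.6 in the Esrrb+Nanog line, where it was next to Pim3 (118.4) and above Pim1 (31.0).

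**Figure D1:**
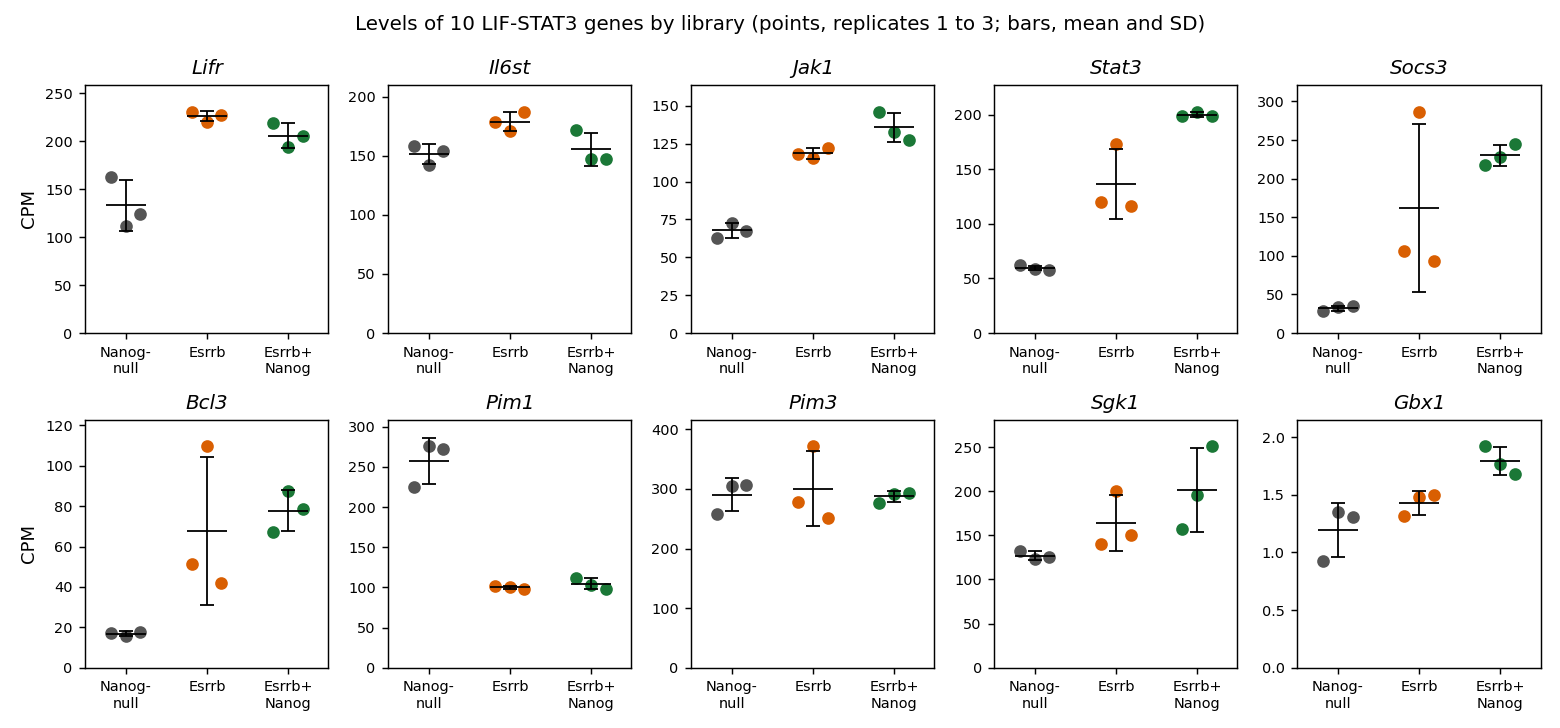
CPM of each of the 10 genes on a linear axis in the 9 libraries, 1 panel per gene, with points for replicates 1 to 3 and bars for the mean and SD. Socs3, Bcl3 and Stat3 are lowest in the Nanog-null libraries, Pim1 is highest there, and Esrrb replicate 2 stands above the other Esrrb libraries for Socs3 (286.9 CPM) and Bcl3 (109.6 CPM).

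Of the receptor genes, Lifr encodes the subunit that binds LIF (ENSMUSG00000054263, mm10 chromosome 15, 7090614 to 7197489, plus strand). Nanog-null replicates 1 to 3 held 163, 112 and 124 CPM, Esrrb replicates 231, 220 and 227, and Esrrb+Nanog replicates 219, 193 and 205. Every library with an added gene was above every Nanog-null library. Lifr rose from 132.9 ± 26.4 to 225.9 ± 5.35 CPM (SD, n = 3) in the Esrrb line, a log2 fold change of 0.77 ± 0.11 (SE; adjusted p = 0.000162, edgeR's quasi-likelihood test with Benjamini-Hochberg adjustment). In the Esrrb+Nanog line it rose by 0.63 ± 0.11 on the same scale (adjusted p = 0.000512). The Esrrb+Nanog libraries all lay below the Esrrb libraries, but the difference of -0.13 did not pass (adjusted p = 0.473).

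Il6st encodes gp130, the signalling subunit shared by the cytokines of the IL-6 family (ENSMUSG00000021756, chromosome 13, 112464070 to 112510086, plus strand). Nanog-null replicates held 158, 142 and 154 CPM, Esrrb replicates 178, 171 and 187, and Esrrb+Nanog replicates 172, 147 and 147. The Esrrb libraries lay above the Nanog-null libraries, and the Esrrb+Nanog libraries overlapped both. The rise in the Esrrb line was small, 0.24 ± 0.073 log2 units (adjusted p = 0.0171), and it did not pass without Nanog-null replicate 2 (0.18, adjusted p = 0.0873) or without Esrrb replicate 3 (0.21, adjusted p = 0.0538). The Esrrb+Nanog line differed from the Nanog-null line by 0.04 (adjusted p = 0.689). It differed from the Esrrb line by -0.2 (adjusted p = 0.0909), which passed only without Esrrb+Nanog replicate 1 (-0.27, adjusted p = 0.0217). Divided by merged exon length, the ratio of Lifr to Il6st RNA averaged 0.901 ± 0.137 for Nanog-null libraries (SD, n = 3). It was 1.30 ± 0.049 for Esrrb and 1.37 ± 0.061 for Esrrb+Nanog libraries, with no overlap between the Nanog-null libraries and the others.

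Jak1 encodes the kinase that phosphorylates gp130 and STAT3 (ENSMUSG00000028530, chromosome 4, 101152367 to 101265282, minus strand). Nanog-null replicates held 62.6, 73.0 and 67.6 CPM, Esrrb replicates 118, 116 and 122, and Esrrb+Nanog replicates 146, 133 and 128. No libraries of different lines overlapped, with Nanog-null lowest and Esrrb+Nanog highest. Jak1 rose by 0.81 ± 0.072 log2 units in the Esrrb line (adjusted p = 4.83e-06) and by 1.00 ± 0.072 in the Esrrb+Nanog line (adjusted p = 6.86e-07), a fold of 1.75 and of 2. The step of 0.19 ± 0.071 between the latter lines did not pass (adjusted p = 0.0952), and passed at library totals alone (0.26, adjusted p = 0.0465).

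Stat3, the transcription factor of the pathway (ENSMUSG00000004040, chromosome 11, 100885098 to 100939540, minus strand), also increased line by line. Nanog-null replicates held 62.0, 59.1 and 57.8 CPM, Esrrb replicates 120, 174 and 116, and Esrrb+Nanog replicates 199, 203 and 199. No libraries of different lines overlapped. Stat3 rose from 59.6 ± 2.11 to 136.7 ± 31.9 CPM (SD, n = 3) in the Esrrb line, by 1.20 ± 0.12 log2 units (adjusted p = 1.44e-05), and to 200.2 ± 2.43 CPM in the Esrrb+Nanog line, by 1.75 ± 0.13 (adjusted p = 6.86e-07). The difference of 0.55 ± 0.12 between the lines with added genes passed as well (adjusted p = 0.0122). It was 0.76 (adjusted p = 2.15e-05) without Esrrb replicate 2 and 0.46 (adjusted p = 0.0619) without Esrrb replicate 1. Stat3 shares 72 exonic bases with Stat5a on the other strand. Strand use in the counting is not given, and Stat5a held 857 counts over all 9 libraries beside 4601, 12018 and 16110 Stat3 counts in the 3 lines.

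Socs3, the feedback inhibitor (ENSMUSG00000053113, chromosome 11, 117966079 to 117970047, minus strand), showed the largest change of the 10 genes against the Nanog-null line. Nanog-null replicates held 27.9, 33.4 and 34.7 CPM, Esrrb replicates 106, 287 and 93.5, and Esrrb+Nanog replicates 218, 228 and 245. The lowest Esrrb library was above the highest Nanog-null library, while Esrrb replicate 2 exceeded every Esrrb+Nanog library. The log2 fold change over the Nanog-null line was 2.34 ± 0.34 in the Esrrb line (5.05-fold, adjusted p = 0.000184) and 2.84 ± 0.35 in the Esrrb+Nanog line (7.17-fold, adjusted p = 3.71e-05). Without Esrrb replicate 2 the former was 1.64 (adjusted p = 2.55e-07). The difference between the lines with added genes was 0.5 ± 0.32 and did not pass (adjusted p = 0.338), but without Esrrb replicate 2 it was 1.21 and did (adjusted p = 1.95e-05). Per merged exon length (2891 bases for Socs3 and 9527 for Stat3), Socs3 RNA was 1.78 ± 0.26 times Stat3 RNA for Nanog-null libraries. It was 3.66 ± 1.6 times for Esrrb and 3.79 ± 0.24 times for Esrrb+Nanog libraries (SD, n = 3). The size of this ratio depends on the lengths used, while its change between lines does not. All Esrrb and Esrrb+Nanog libraries exceeded the Nanog-null libraries in this ratio, from 2.65 upward against 1.98 at most.

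Among the targets, the means of Bcl3 had the same order of lines (ENSMUSG00000053175, chromosome 7, 19808462 to 19822770, minus strand). BCL3 is a nuclear protein of the IκB family that works with NF-κB subunits. Nanog-null replicates held 17.2, 15.6 and 17.9 CPM, Esrrb replicates 51.4, 110 and 42.2, and Esrrb+Nanog replicates 67.3, 87.6 and 78.5. As for Socs3, Esrrb replicate 2 was above every Esrrb+Nanog library. Bcl3 rose by 2.01 ± 0.29 log2 units in the Esrrb line (4.02-fold, adjusted p = 0.000156) and by 2.20 ± 0.29 in the Esrrb+Nanog line (4.6-fold, adjusted p = 6.2e-05). Without Esrrb replicate 2 the rise in the Esrrb line was 1.47 (adjusted p = 3.65e-06). The difference between the lines with added genes was then 0.73 (adjusted p = 0.002), beside 0.2 ± 0.27 with all libraries (adjusted p = 0.686). Bcl3 shares 161 exonic bases with the antisense gene Gm16175, which held 27 counts in all.

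Pim1 moved the opposite way. It encodes a serine/threonine kinase that promotes survival and growth (ENSMUSG00000024014, chromosome 17, 29490753 to 29496112, plus strand). Nanog-null replicates held 224, 276 and 273 CPM, the Esrrb libraries 102, 100.4 and 97.9, and the Esrrb+Nanog libraries 112, 104 and 98.0. The Nanog-null libraries were all above the others, and the lines with added genes overlapped. Pim1 fell by 1.36 ± 0.082 log2 units in the Esrrb line (2.57-fold lower, adjusted p = 2.86e-07) and by 1.30 ± 0.082 in the Esrrb+Nanog line (adjusted p = 2.64e-07). These lines differed by 0.06 ± 0.081 (adjusted p = 0.691). Pim1 shares 488 exonic bases with the antisense gene Gm26885, which held 76 counts in all.

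Its relative Pim3 (ENSMUSG00000035828, chromosome 15, 88862186 to 88865726, plus strand) is a kinase with related activity and had the highest level per length of the 10 genes in each line. Nanog-null replicates held 258, 305 and 307 CPM, Esrrb replicates 278, 372 and 251, and Esrrb+Nanog replicates 277, 292 and 293, so all 3 lines overlapped. The log2 differences were 0.05 ± 0.12 (adjusted p = 0.764) for the Esrrb line and -0.01 ± 0.12 (adjusted p = 0.929) for the Esrrb+Nanog line, both against the Nanog-null line. The ratio of Pim1 to Pim3 RNA per length averaged 0.640 ± 0.012 for Nanog-null, 0.247 ± 0.046 for Esrrb and 0.263 ± 0.025 for Esrrb+Nanog libraries (SD, n = 3). The Nanog-null libraries, from 0.627 to 0.653, did not overlap the others, which reached 0.291 at most. The third kinase of the family, Pim2, fell as Pim1 did in the Esrrb line, from 97.5 to 43.2 CPM (-1.17 log2 units, adjusted p = 1.83e-05). Pim2 was also lower in the Esrrb+Nanog line than in the Esrrb line, at 23.4 CPM (-0.88, adjusted p = 0.0013).

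Sgk1 encodes the serum- and glucocorticoid-regulated kinase (ENSMUSG00000019970, chromosome 10, 21882184 to 21999903, plus strand). Nanog-null replicates held 132, 123 and 126 CPM, Esrrb replicates 141, 200 and 151, and Esrrb+Nanog replicates 157, 196 and 251. Both lines with added genes lay above the Nanog-null line and overlapped each other, and Esrrb replicate 2 and Esrrb+Nanog replicate 3 were the highest libraries of their lines. The rise of 0.67 ± 0.16 log2 units in the Esrrb+Nanog line passed (adjusted p = 0.00353). The difference of 0.37 ± 0.16 in the Esrrb line did not (adjusted p = 0.0707), although it passed in 5 of 16 alternative fits, among them those without Esrrb replicate 1 (0.47, adjusted p = 0.0439), without Esrrb+Nanog replicate 1 (0.35, adjusted p = 0.0365) and without Esrrb+Nanog replicate 3 (0.37, adjusted p = 0.03). Without Esrrb replicate 2 it was 0.2 (adjusted p = 0.289).

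Gbx1, a homeobox gene (ENSMUSG00000067724, chromosome 5, 24502757 to 24527202, minus strand), was barely expressed. It held 94, 124 and 144 counts in the 3 lines, each over 3 libraries. Nanog-null replicates held 0.927, 1.35 and 1.31 CPM, Esrrb replicates 1.31, 1.48 and 1.498, and Esrrb+Nanog replicates 1.92, 1.77 and 1.68, which lay above the others. The rise of 0.57 ± 0.21 log2 units over the Nanog-null line passed narrowly (adjusted p = 0.0336) and no longer passed in 8 of 15 alternatives (adjusted p from 0.0301 to 0.123 over the 15). These included leaving out any 1 of the Esrrb+Nanog libraries (0.0503 to 0.0905), Nanog-null replicate 1 (0.123) or Nanog-null replicate 3 (0.0607). Its relative Gbx2, a known STAT3 target in these cells, was far more abundant, and Gbx1 RNA per length was 0.037 ± 0.0066 of Gbx2 RNA in the Nanog-null line. Gbx2 was at 20.3, 34.9 and 44.4 CPM in the 3 lines. It rose in the Esrrb+Nanog line (1.13, adjusted p = 0.00133). Its rise in the Esrrb line (0.78, adjusted p = 0.0138) did not pass without Esrrb replicate 2 (0.46, adjusted p = 0.0549) or without Nanog-null replicate 3 (0.74, adjusted p = 0.0511).

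**Figure D2:**
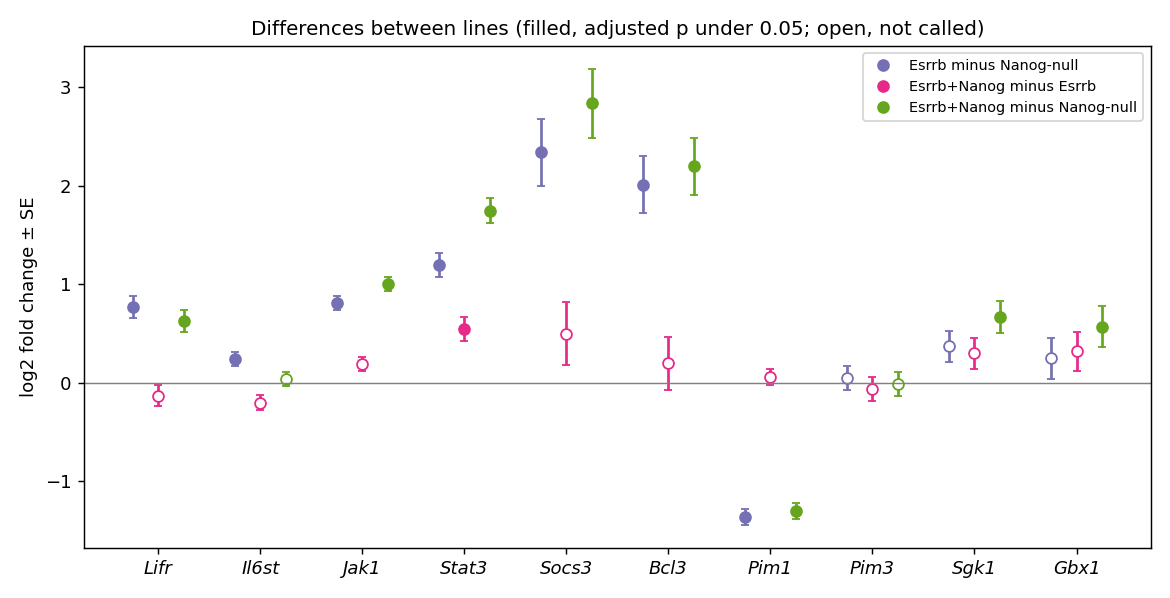
Log2 fold change of the 10 genes in the 3 comparisons, with points for the fitted value and lines for 1 standard error either side. Socs3 and Bcl3 lie near 2 or above against the Nanog-null line, Pim1 lies below -1, Pim3 lies near 0, and between the Esrrb+Nanog and Esrrb lines Stat3 alone passed the threshold.

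In Esrrb replicate 2 some of the 10 genes were raised together while others were not. Against the mean of the other 2 Esrrb libraries, Socs3 was 1.53 higher on the log2 scale (2.89-fold) and Bcl3 was 1.23 higher (2.35-fold). A ratio at least as high was found for 0.136% and 0.303% of all tested genes. Stat3 (0.55), Pim3 (0.49) and Sgk1 (0.46) were raised less, and 5.11%, 6.47% and 7.2% of tested genes were at or above them. The remaining genes lay between -0.09 (Il6st) and 0.07 (Gbx1), close to the median of all genes (-0.01). The upstream genes Lifr (-0.05) and Jak1 (-0.06) and the kinase Pim1 (0.01) were thus level with the other libraries. Over all tested genes, 2.2% differed over 2-fold in this library, within the range of 0.945% to 2.44% over the 9 libraries. In no other library was any of the 10 genes over 2-fold from the other libraries of its line.

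**Figure D3:**
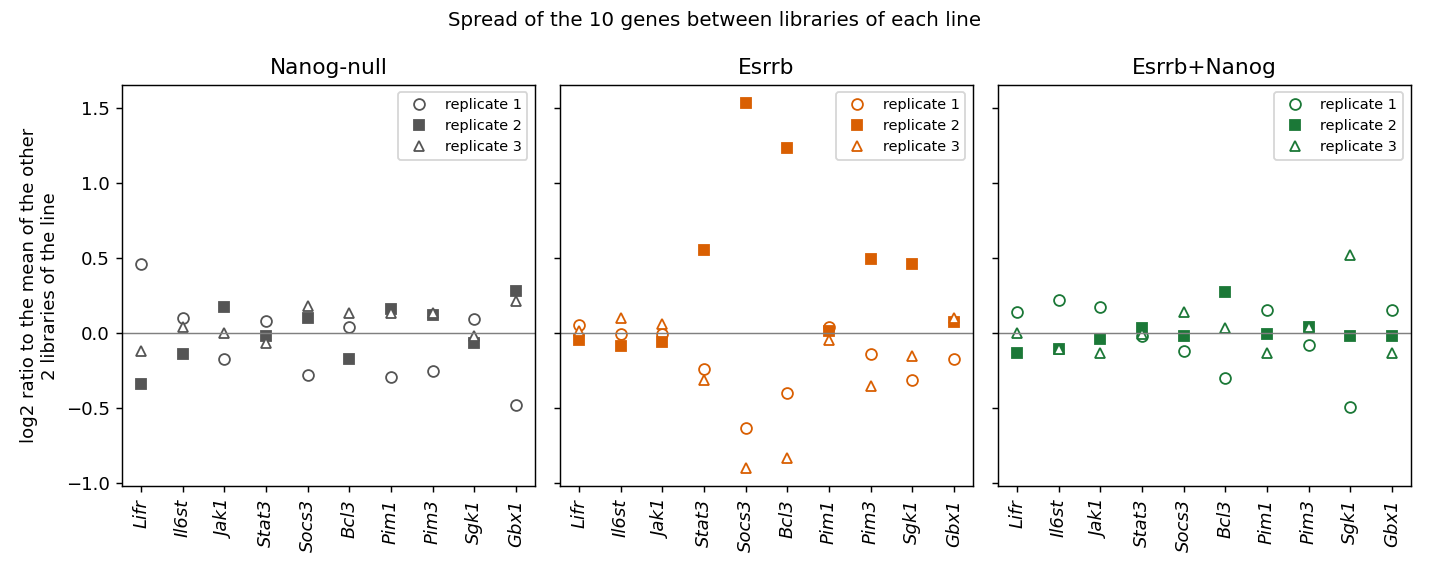
Log2 ratio of each library to the mean of the other 2 libraries of its line for the 10 genes, 1 point per library. Esrrb replicate 2 is at 1.53 for Socs3 and 1.23 for Bcl3, and no other point passes 1 in either direction.

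Other genes near the pathway were also high in this library. Among 12 further STAT3 targets the median log2 ratio was 0.21, and 4 of the 12 (Gbx2, Junb, Klf4 and Zfp36) were over 0.5, beside 6.24% of all tested genes. Medians of some other lists were similar or higher, at 0.25 for 3 receptor genes, 0.19 for 8 primitive endoderm markers and 0.35 for 5 fibroblast markers. Klf4 stood at 171 CPM beside 108 and 103, Junb at 44.9 beside 28.7 and 25.3, and Gbx2 at 48.9 beside 25.8 and 29.9. Jak3 was at 82.6 beside 55.6 and 40.2, and the inhibitor gene Cish at 3.65 beside 2.59 and 2.2. Not all targets shared this, since Cebpd was lower (3.27 beside 5.84 and 5.92). Esrrb itself was at 949 CPM beside 769 and 692. Of the 8 genes listed as immediate-early, which respond to handling, only Fosb was over 0.5. Their median was 0.2, close to the 0.21 of the STAT3 targets. Whether handling had a part in the raised targets, Junb, Zfp36 and Klf4 among them, was not tested. Of the other markers listed, leaving out Acta2 with 3 counts over the Esrrb line, Thy1 (fibroblast), Krt8 and Tfap2c (trophoblast) and Lama1 (primitive endoderm) were over 0.5, and the part of these genes in the values of Socs3 and Bcl3 was not tested. Without this library, 3 of the 10 genes were higher in the Esrrb+Nanog line than in the Esrrb line, Stat3, Socs3 and Bcl3, in place of 1. Over all tested genes 14.3% passed in that fit, beside 13.2% with all libraries.

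The rest of the pathway did not share 1 direction. Of 54 further genes in 8 lists, 50 were tested, and Il6, Cntf, Osm and Osmr were too low. In the Esrrb line 14 rose and 15 fell against the Nanog-null line, with a median log2 fold change of -0.04. In the Esrrb+Nanog line 15 rose and 14 fell (median -0.07). Between the lines with added genes 4 were higher and 6 lower in the Esrrb+Nanog line (median 0.1). These shares stand beside the 48.5%, 54.4% and 13.2% of all tested genes given above.

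Among the cytokines, 4 were tested. Lif itself, named here after its value was seen, rose from 2.69 to 4.29 CPM in the Esrrb line (0.67, adjusted p = 0.0102) and was at 3.44 in the Esrrb+Nanog line (0.34, adjusted p = 0.143). Ctf1, which encodes cardiotrophin 1, another ligand of LIFR, fell from 4.48 to 2.77 CPM in the Esrrb line (-0.7, adjusted p = 0.00274) and was at 2.89 in the Esrrb+Nanog line (-0.64, adjusted p = 0.00408). Clcf1 fell from 1.25 to 0.332 CPM in the Esrrb line (-1.89, adjusted p = 0.00102). Of the 3 other receptor genes tested, Il6ra, the receptor for IL-6, changed most. It was at 1.16, 3.39 and 15.3 CPM in the 3 lines, and passed in each step (1.55, adjusted p = 0.000235; 2.17, adjusted p = 5.3e-05). Of the 3 other JAK genes only Jak3 passed, where 48.5% and 54.4% of all tested genes passed against the Nanog-null line. Jak3 rose from 23.0 to 59.5 CPM in the Esrrb line (1.37, adjusted p = 0.000166) and to 76.2 in the Esrrb+Nanog line (1.72, adjusted p = 2.37e-05).

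Of 11 inhibitor genes other than Socs3, 1 rose, 4 fell and 6 did not pass in the Esrrb line (median -0.19). In the Esrrb+Nanog line 2 rose, 4 fell and 5 did not pass (median -0.07). Over all tested genes 48.5% passed in the first of these comparisons and 54.4% in the second. Socs2, of the same family as Socs3, fell from 134.0 to 84.8 CPM in the Esrrb line (-0.66, adjusted p = 6.22e-05) and to 73.6 in the Esrrb+Nanog line (-0.86, adjusted p = 6.43e-06). Pias3, which encodes a protein inhibitor of STAT3, fell from 46.4 to 26.9 CPM (-0.78, adjusted p = 1.57e-05) and to 29.0 (-0.68, adjusted p = 3.51e-05). In the branch from gp130 through SHP2 to ERK, 1 of 5 genes rose and 2 fell in the Esrrb line. Of all tested genes 24.2% were higher and 24.2% lower there. The adaptor gene Gab2 went from 2.36 to 0.321 CPM (-2.9, adjusted p = 9.49e-05) and the exchange factor gene Sos1 from 103 to 69.4 CPM (-0.58, adjusted p = 5.17e-05).

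Of the 12 further STAT3 targets, 6 rose and 2 fell in the Esrrb line, beside 24.2% higher and 24.2% lower of all tested genes. In the Esrrb+Nanog line 6 rose and 2 fell against the same Nanog-null libraries, beside 27.2% higher and 27.2% lower. From the Esrrb to the Esrrb+Nanog line, 2 were higher (Klf4 and Bcl6) and 4 lower (Myc, Pramel7, Cebpd and Nfkbiz). Of all tested genes 5.43% were higher and 7.75% lower there. Without Esrrb replicate 2, Gbx2 was also higher (0.67, adjusted p = 0.0244), beside 0.35 (adjusted p = 0.341) with all libraries. Junb did not pass in this step (0.53, adjusted p = 0.073) but did in 5 of 16 alternatives. Klf4, a transcription factor of the self-renewing state, rose from 6.65 to 127 CPM (4.25 ± 0.19 log2 units, adjusted p = 3.42e-08) and to 288 (5.43 ± 0.2, adjusted p = 4.29e-09). It was also higher in the Esrrb+Nanog line than in the Esrrb line (1.18, adjusted p = 0.000708). Tfcp2l1, which can stand in for LIF when overexpressed, was at 266, 887 and 883 CPM, a rise of 1.74 ± 0.11 (adjusted p = 3.16e-07) with no further step. Pramel7 rose only in the Esrrb line by these tests, at 0.554, 2.75 and 0.577 CPM (2.28, adjusted p = 8.43e-05), and was lower in the Esrrb+Nanog line than there (-2.23, adjusted p = 0.000707). Klf5, Junb, Cish, Zfp36, Myc, Bcl6, Cebpd and Nfkbiz were named after their values were seen. Klf5 rose from 112 to 245 CPM in the Esrrb line (1.13, adjusted p = 1.91e-06). Nfkbiz, like Bcl3 a member of the nuclear IκB family, fell from 8.47 to 3.49 CPM there (-1.28, adjusted p = 4.56e-05). Its further fall in the Esrrb+Nanog line (-0.66, adjusted p = 0.0256) did not pass in 5 of 16 alternatives. Myc was at 67.8, 99.0 and 63.6 CPM, a rise in the Esrrb line (0.54, adjusted p = 0.0101) and a lower level in the Esrrb+Nanog line than there (-0.64, adjusted p = 0.0166).

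**Figure D4:**
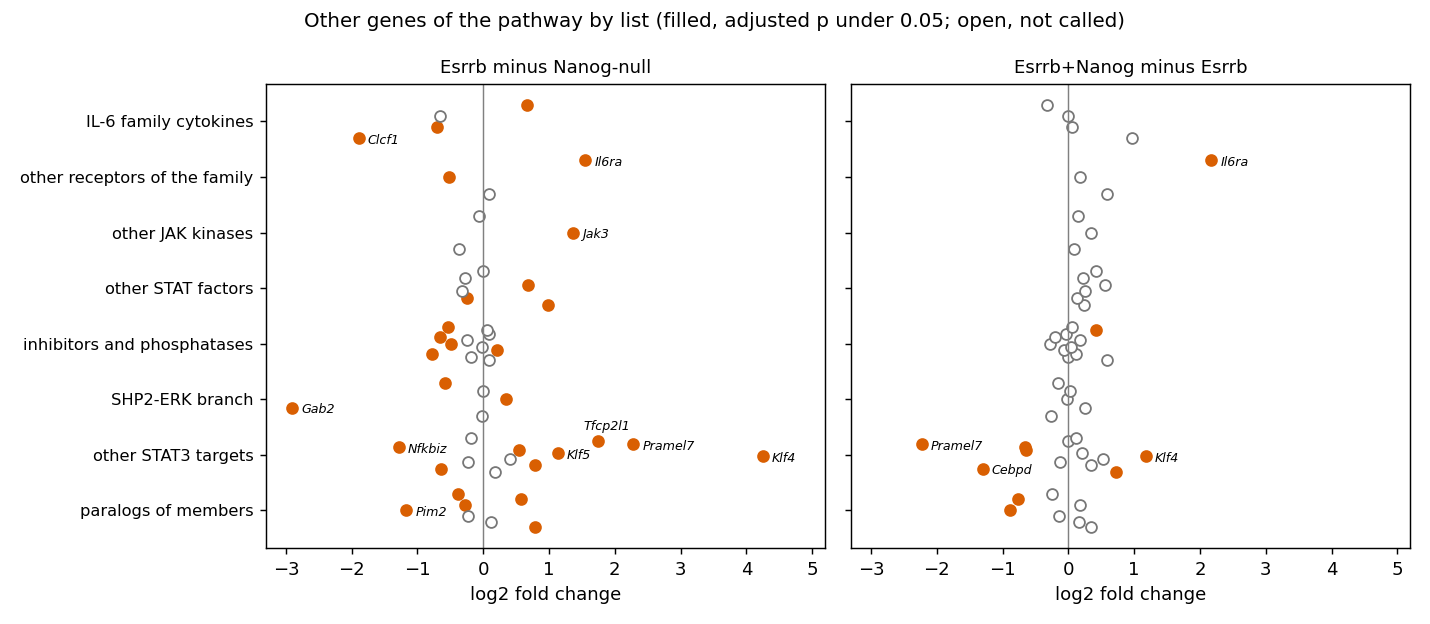
Log2 fold change (horizontal) of the tested further pathway genes by list (vertical), as Esrrb minus Nanog-null (left) and Esrrb+Nanog minus Esrrb (right), filled where the adjusted p is under 0.05. Klf4 is at 4.25 on the left and 1.18 on the right, Gab2 is at -2.9 on the left, and 10 genes are filled on the right.

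Markers of other cells differed between the lines as well. Over all tested genes 48.5% passed in the Esrrb line and 54.4% in the Esrrb+Nanog line against Nanog-null, and 13.2% between those lines. The 9 primitive endoderm markers had sums of 58.7 to 188 CPM (Nanog-null), 222 to 323 (Esrrb) and 402 to 476 (Esrrb+Nanog). The sums had the same order of lines as Stat3 and Socs3, but the single markers did not share it. Of the 8 tested, 4 were higher and 1 lower in the Esrrb line than in the Nanog-null line, and 2 higher and 2 lower in the Esrrb+Nanog line. From the Esrrb to the Esrrb+Nanog line 1 was higher (Lama1) and 3 lower (Dab2, Pdgfra and Cubn). The highest sums, those of the Esrrb+Nanog line, were carried mainly by Lama1, at 334, 330 and 404 CPM in replicates 1 to 3. Sox17 was at 0.517, 0.925 and 0.7 CPM in these libraries. Of the genes of the sort, Pdgfra rose from 2.29 to 10.4 CPM in the Esrrb line (2.16, adjusted p = 0.00474) and was at 2.90 in the Esrrb+Nanog line (0.31 against Nanog-null, adjusted p = 0.66). Its fall from the Esrrb line (-1.85, adjusted p = 0.0337) did not pass in 7 of 16 alternatives. Pecam1 fell from 101 to 61.9 CPM in the Esrrb line (-0.71, adjusted p = 0.000176) and to 49.8 in the Esrrb+Nanog line (-1.02, adjusted p = 9.38e-06). The 8 trophoblast markers summed to 99.6 to 248 CPM in the Nanog-null libraries and to 60.7 at most in the others, with 0 higher and 6 lower of 7 tested in the Esrrb line. The 7 fibroblast or feeder markers summed to 18.3 to 89.2 CPM in the Nanog-null libraries and to 20.0 at most in the others, so these sums overlapped. Of 5 fibroblast markers tested, 1 was higher (Thy1) and 3 lower in the Esrrb line, and 2 were higher and 2 lower in the Esrrb+Nanog line. Over the Esrrb line Elf5, Col3a1, Postn and Acta2 held 3 counts or fewer each, and over the Esrrb+Nanog line Col3a1 and Postn did. The trophoblast sums, like Pim1, were higher in every Nanog-null library than in any other. The 8 immediate-early genes summed to 168 to 216, 242 to 288 and 275 to 299 CPM in the 3 lines, with 3 higher and 3 lower in the Esrrb line. The part of any of these cells or of handling in the results above was not tested. Without Nanog-null replicate 2, which had the highest trophoblast and fibroblast sums, Pim1 still fell by 1.33 log2 units in the Esrrb line (adjusted p = 1.9e-06), Socs3 rose by 2.35 (adjusted p = 0.00116) and Stat3 by 1.18 (adjusted p = 0.000132).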

How the data were processed

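Total RNA of sorted cells was depleted of ribosomal RNA and prepared with a NEBNext kit, per the labels. The submitters' processing notes name bcl2fastq 2.19.1, STAR 2.5.3a and mm10. The authors deposited whole-number read counts per gene. The use of strand in counting was not given in the sources used here. Of the table's columns, 9 were used and 6 were not used here.

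GENCODE M21 gave a symbol to 52403 IDs and none to 233. Counts were tested in R 4.3.3 with the quasi-likelihood test of edgeR 4.0.16 (default low-count filter, TMM factors, all 9 libraries, line as the only term), adjusted by Benjamini-Hochberg over 16198 genes, threshold 0.05. CPM are TMM-scaled. SEs are the log2 change divided by the square root of F. The procedure was tested on simulated data. Precision is limited by 3 libraries per line.

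Alternatives were other scalings, DESeq2 1.42.0, other filters, fewer lines, a replicate block and each library left out. The genes and lists were chosen with earlier results of these data known. Besides the 10 genes, names come from the 2 called genes of smallest adjusted p per list and comparison, the altered and sorted genes, and those the text says were added. Not every gene picked by this rule is reported here.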

Additional observations from a re-analysis of the deposited data

How the results depend on the processing

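Of 477 alternative fits of the 10 genes' 30 fold changes, 455 kept their direction and side of the threshold, 11 fell short of it, 11 newly passed and 0 reversed. For other named genes the numbers, counted in the same way, were 1756, 51, 35 and 0 of 1842. Between the Esrrb+Nanog and Esrrb lines, the count of the 10 genes that passed was 1 in the fit reported, beside 13.2% of all tested genes. It was 2 at library totals alone (14.4% of all), 3 with no low-count filter (9.1% of 32252 genes), and from 0 to 3 with 1 library left out. The 0 came without Esrrb replicate 1 (6.65% of all tested genes), the 3 without Esrrb replicate 2 (14.3%). Of the further pathway genes, 10 passed in this comparison in the fit reported, and 18 with no low-count filter. With no such filter, Socs3 had an adjusted p of 2.2e-09 at a log2 change of 0.51, beside 0.338 at 0.5 in the fit reported. Its Esrrb libraries ran from 93.5 to 286.9 CPM, so calls of widely spread genes in the unfiltered fit are of little weight. Over all genes, 2135 passed between these lines in the fit reported, 41.2% of them higher, and 59.6% higher at library totals alone. The count was 1105 without Esrrb replicate 1 (6.65%), 1378 without Esrrb replicate 3 (8.2%) and 1215 without Esrrb+Nanog replicate 2 (7.24%). The cause was not tested. With the replicate number as a block, 7, 1 and 8 of the 10 genes passed in the 3 comparisons, as without it. Over all tested genes 7997, 2381 and 8946 passed with it (49.4%, 14.7% and 55.2%), beside 7849, 2135 and 8816 (48.5%, 13.2% and 54.4%). Deviations of same-numbered libraries correlated from -0.0248 to 0.278, and not every library correlated best with its own number, so the numbers were not taken to pair libraries. Gbx1, at 94 to 144 counts per line, is limited by depth, and DESeq2 did not call it.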

Other observations

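For 3 of the 10 genes, the tested genes of most similar pattern were listed by the root mean square difference of log2 CPM. Values were centred on each gene's mean over the 9 libraries. The search covered 10130 genes of at least 5 CPM on average. Predicted genes (Gm and Rik names) and IDs without a symbol were left out. The 9 libraries share 3 lines and are not independent points. For Socs3 these were Xaf1 (0.297), Gpx1 (0.3) and Bcl3 (0.308). Mean levels of Xaf1 were 3.20 CPM (Nanog-null), 15.9 (Esrrb) and 21.8 (Esrrb+Nanog), and those of Gpx1, which encodes glutathione peroxidase 1, were 38.3, 136.0 and 242. In the Esrrb line Gpx1 was high in replicate 2, as Socs3 was, at 209 CPM beside 101 and 98.3. For Stat3 the nearest genes were Fkbp14 (0.092), Pradc1 (0.104) and Lrrc34 (0.139). Lrrc34 was at 12.5, 31.3 and 47.1 CPM in the 3 lines. For Lifr they were Peg13 (0.104), Fsd1l (0.108) and Atp5l (0.109), and Fsd1l was at 23.0, 35.6 and 35.3 CPM.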
